A study of Danio rerio with 9 samples.

Results

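Sperm ATAC-seq peaks on the alternate haplotype contigs of the zebrafish genome are described here, that is, all peaks on a sequence whose name starts with ALT in the GRCz11 assembly named in the submitters' processing notes. The members were chosen by contig name alone. Of 253847 peaks in 9 peak lists, 26561 (10.5%) lay on ALT contigs, 218888 on chromosomes 1 to 25 and 8398 on unplaced scaffolds. Peaks that overlapped by at least 1 bp across lists were merged into regions, and detection of a region in a library means that at least 1 of its peaks is in that list. This gave 14065 ALT regions of 126838 in all (11.1%), on 904 ALT contigs.

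The libraries were made from spermatozoa of adult zebrafish, 100000 per library. In 5 libraries, called injured 1 to 5, a freezing lesion (cryoinjury) had been set in the hearts of the males 7 days earlier, and 4 libraries, control 1 to 4, came from uninjured males. Peaks had been called in each library separately. The labels name no strain, age or transgene, nor the number of males behind a library, and p-values therefore measure only the spread between libraries, which may be technical.

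ATAC-seq uses the transposase Tn5, which cuts open DNA and attaches adapters to it, and a peak caller marks the places where cuts pile up. Zebrafish sperm package their DNA with histones rather than protamines, so sperm chromatin in this species keeps nucleosomes. An alternate contig is a second version of a stretch of the genome, added to an assembly where haplotypes differ too much to be written as a single sequence. A read from a stretch that is the same in both versions can be placed on either, and how such reads were treated in these libraries is not given in the sources used here. Of a site with no peak it can only be said that it was not detected.

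Among the strongest ALT peaks, a set detected in injured 1 and injured 2 and in none of the other 7 libraries stood out. Strength was read from the score that each deposited list gives its peaks, used only to rank peaks within a list, with rank 1 the best. Of the 20 ALT regions that reached the best 100 ranks of a library, 12 were detected in injured 1 and injured 2 and in no other library. Each of the 12 was in the best 100 of injured 2, and most were not in that of injured 1. The best 100 held 13 ALT peaks in injured 2, 3 in injured 1 and 1 to 5 in each of the other 7 libraries. The set of 20 was therefore filled largely through injured 2. The same pattern held 44 of the 190 such regions on chromosomes 1 to 25 (23.2%) and 0 of the 34 on unplaced scaffolds. The group comparisons of ALT peak number and share, and the results on best-ranked peaks, are given with and without injured 1 and injured 2. No pair of libraries shared more than 2 ALT peaks with identical coordinates, so no list was a copy of another.

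Of the ALT regions with a peak in all 9 libraries, the best-ranked was ALT_CTG20_1_8, 135499 to 137838, 2340 bp wide. Its peak ranked 22, 97, 23, 16 and 13 in injured 1 to 5 and 12, 35, 12 and 15 in control 1 to 4. The peak was 2285 to 2337 bp wide, against a median ALT peak of 183 to 277 bp in the same libraries, and the ranks of both groups overlapped. Of the 20 ALT regions in the best 100 ranks it was the only member with a peak in each of the 9 libraries, whereas 97 of the 190 on the chromosomes did (51.1%).

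The 12 regions detected in injured 1 and injured 2 alone ranked 15 to 86 in injured 2, where all met the filter, and 61 to 471 in injured 1. ALT_CTG23_1_28, 136755 to 137281, ranked 61 in injured 1 and 15 in injured 2, where it was the best-ranked ALT peak. ALT_CTG23_1_30, 23026 to 23627, ranked 215 and 22, and ALT_CTG3_1_31, 66357 to 66753, ranked 307 and 28. Counted over the best 1000 ranks, 25 of 151 ALT regions had this pattern (16.6%), against 122 of 2123 on the chromosomes (5.75%). The 25 regions were spread over 24 contigs, were 190 to 602 bp wide, and ranked better in injured 2 than in injured 1 in 25 of 25 cases (median rank 129 against 291). They were chosen by their best rank, which all 25 met in injured 2 (worst rank 844), while ranks in injured 1 ran to 16306. The better rank in injured 2 is therefore read from the values used to choose the regions.

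A second pattern had peaks in injured 1, 2, 4 and 5 and in control 3 and 4, and none in injured 3, control 1 or control 2. It held 4 of the 20 strongest ALT regions and 14 of the 190 on the chromosomes. ALT_CTG22_1_22, 114666 to 115953, ranked 294, 338, 64 and 121 in injured 1, 2, 4 and 5, and 118 and 124 in control 3 and 4. ALT_CTG5_1_11, 416914 to 418666, ranked 210, 400, 89 and 146 in the same injured libraries and 175 and 125 in the control libraries. The others were ALT_CTG3_2_1 and ALT_CTG1_2_7. Both patterns cut across the injured and control groups or split the injured group, and both were noticed in these lists rather than looked for, so they carry no test.

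**Figure D1:**
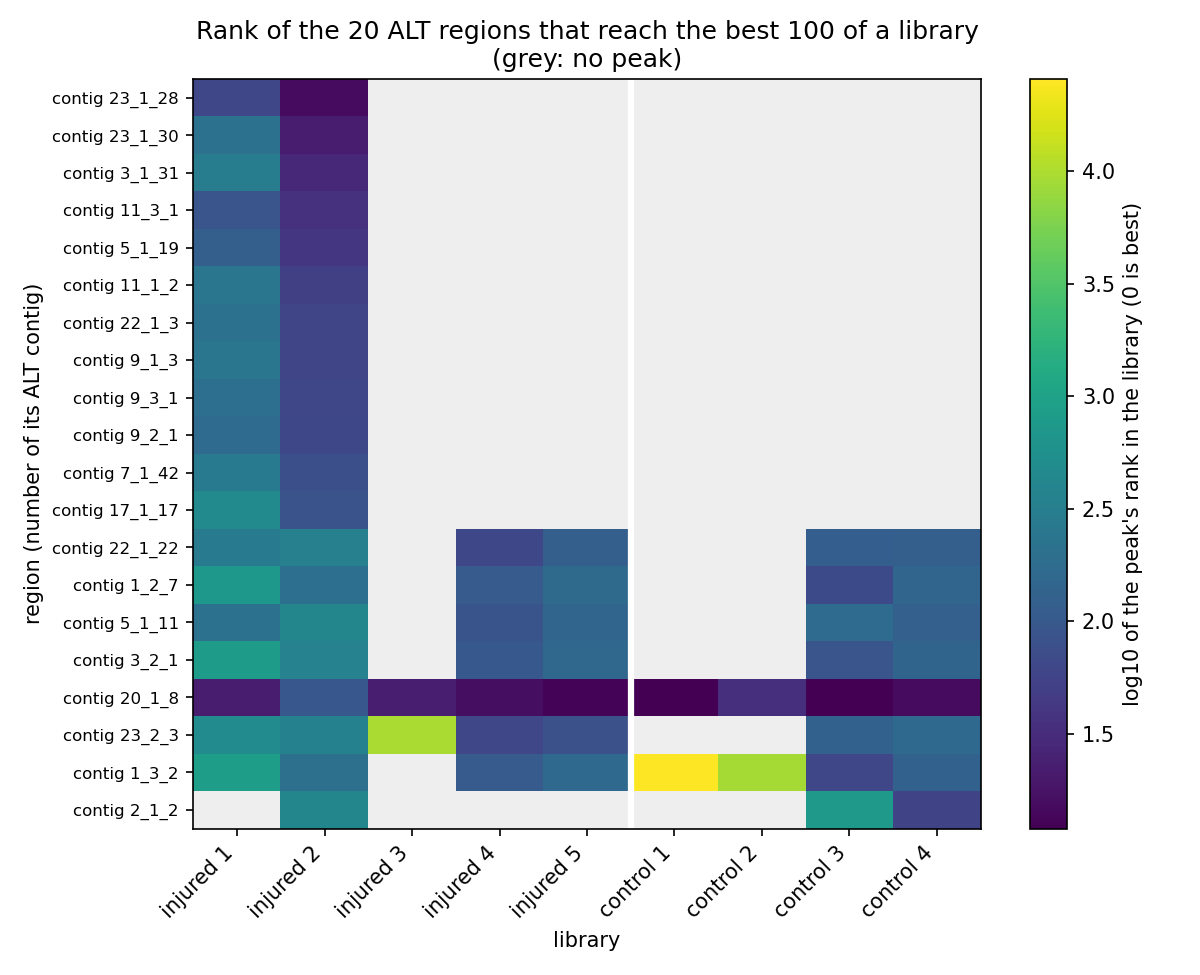
Rank, as log10 with rank 1 at 0, of the 20 ALT regions that reached the best 100 ranks of a library; columns are libraries and grey marks a library with no peak. The upper 12 rows are filled in injured 1 and injured 2 alone, the next 4 in 6 libraries, and only the row of ALT_CTG20_1_8 is dark in all 9 libraries.

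Among all ALT regions, not only the strong ones, the pair of injured 1 and injured 2 did not stand out. Of 2301 ALT regions with a peak in exactly 2 libraries, 70 had them in this pair (3.04%), which put it in place 13 of 36 pairs. The most frequent pair was control 3 with control 4, the latter the longest list, with 222 regions. The second pattern was more frequent, with 12 of the 258 ALT regions detected in exactly 6 libraries (4.65%), place 3 of 68 sets seen. On the chromosomes it held 58 of 2202 such regions (2.63%), place 8 of 84.

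ALT peaks were fewer in the injured libraries, as were peaks in general, but the difference did not pass the 0.05 threshold once adjusted. Injured 1 to 5 had 2764, 2795, 1429, 2520 and 1638 ALT peaks, and control 1 to 4 had 2890, 3763, 3430 and 5332. The groups did not overlap, although injured 2 and control 1 came close at 2795 and 2890. The means were 2229 ± 648 (SD, n = 5) and 3854 ± 1049 (SD, n = 4), a ratio of 0.578 (exact two-sided permutation p = 0.00794, the smallest that 126 assignments allow; adjusted p = 0.0873 over 11 per-library values). Without control 4, which had most peaks, the difference was -1132 peaks and the exact permutation p 0.0536. The whole lists also did not overlap, with 15508 to 29622 peaks in injured and 30126 to 45277 in control libraries. In lists shortened to the 15508 best-ranked peaks, the length of the shortest, the injured libraries had 1479 ± 133 ALT peaks (SD, n = 5) and the control libraries 1581 ± 145 (SD, n = 4), with overlap (exact permutation p = 0.294). Without injured 1 and injured 2 the difference in full lists (injured minus control) was -1991 peaks, and the exact permutation p was 0.0571.

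The share of a library's peaks that lay on ALT contigs differed less. It was 9.33, 10.9, 9.21, 10.5 and 9.30% in injured 1 to 5, and 9.14, 11.0, 11.4 and 11.8% in control 1 to 4. Control 1 had the lowest share of all 9 libraries and the other 3 control libraries the highest 3, so the groups overlapped through control 1 alone. The means were 9.84 ± 0.778% (SD, n = 5) and 10.8 ± 1.16% (SD, n = 4), lower by 0.973 percentage points in injured libraries, which did not pass the test (exact permutation p = 0.190, adjusted p = 0.364). Without injured 1 and injured 2 the difference was -1.15 points (exact permutation p = 0.2). Without control 1 it was -1.53 points, with an exact permutation p of 0.0357 before adjustment. The Wilson 95% interval of a single library's share reached at most 0.455 points to either side, counting error only.

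**Figure D2:**
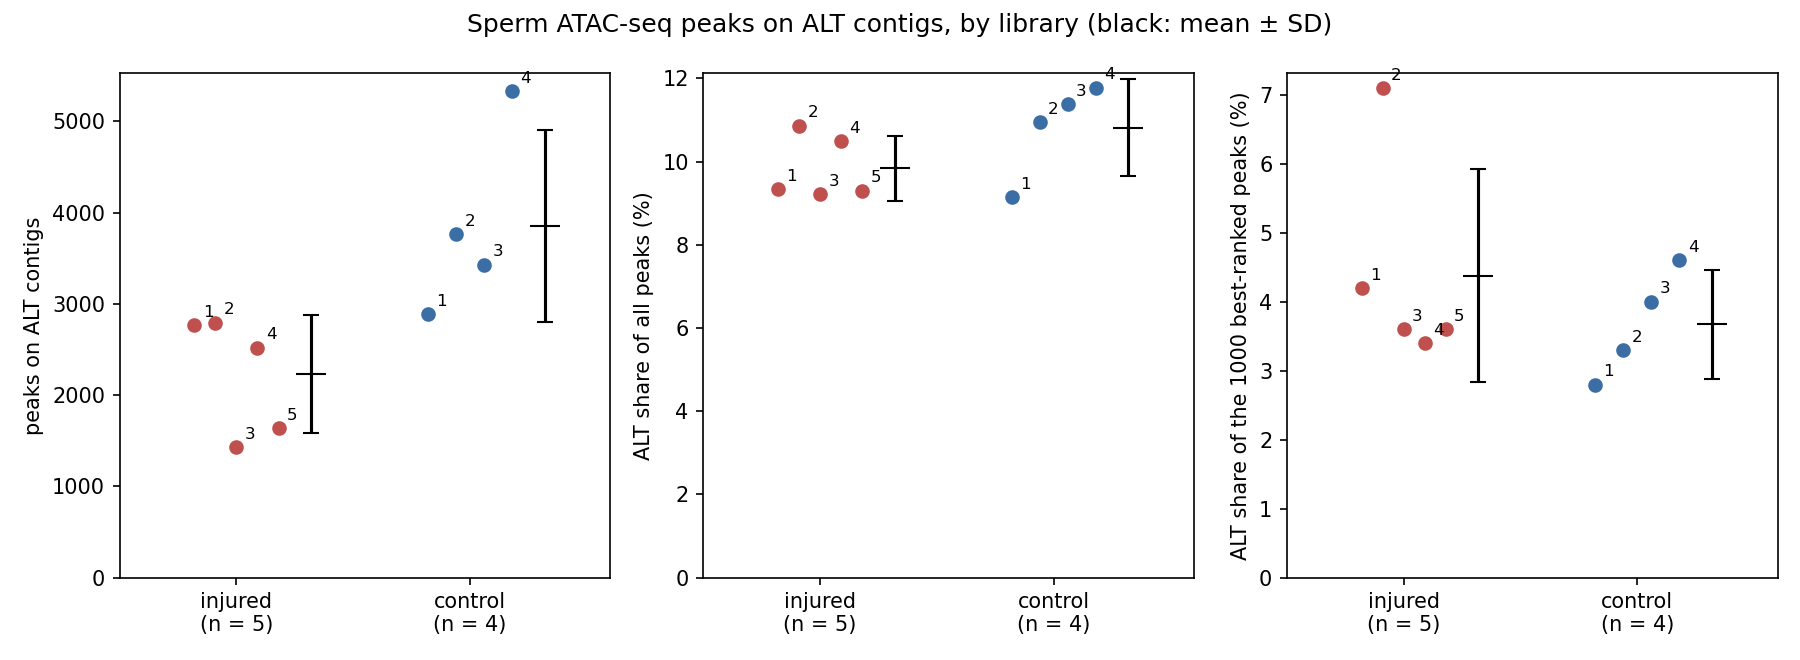
Number of ALT peaks, ALT share of all peaks and ALT share of the 1000 best-ranked peaks in each library (numbered points; black bars, mean ± SD). The groups are apart in the left panel, overlap through control 1 in the middle panel, and in the right panel injured 2 lies above the other 8 libraries at 7.1%.

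ALT peaks of injured libraries covered 631 ± 200 kb (SD, n = 5) and those of control libraries 1055 ± 365 kb (SD, n = 4), with overlap (exact permutation p = 0.0476, adjusted p = 0.175). The number of ALT contigs with a peak was 690 ± 74.6 (SD, n = 5) against 798 ± 53.9 (SD, n = 4), also with overlap (exact permutation p = 0.0635). The share of a library's ALT peaks whose region had a peak in another library was 71.3 ± 4.10% (SD, n = 5) after injury and 63.3 ± 1.98% (SD, n = 4) without it, and the groups did not overlap (exact permutation p = 0.0159, adjusted p = 0.0873). In lists of equal length this last difference had the other sign, 66.0 against 68.4% (exact permutation p = 0.270).

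ALT peaks were scarce among the best-ranked peaks of every library. The best 1000 held 42, 71, 36, 34 and 36 ALT peaks in injured 1 to 5 and 28, 33, 40 and 46 in control 1 to 4. Across libraries this was 4.07 ± 1.25% (SD, n = 9) of the best 1000, against 10.3 ± 1.04% (SD, n = 9) of all peaks. The share was lower by 6.21 percentage points, and lower in 9 of 9 libraries (exact sign-flip permutation p = 0.00391, the smallest possible; adjusted p = 0.00488 over 5 comparisons within libraries). Of the ALT peaks in the best 1000, 23 of 42 in injured 1 and 25 of 71 in injured 2 belonged to the regions detected in that pair alone. Without both libraries the difference was -6.71 points, in 7 of 7 libraries (exact sign-flip permutation p = 0.0156).

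The ALT share rose down the score order and then levelled. It was 4.32 ± 2.84% (SD, n = 9) in the best 1% of a list, 4.42 ± 1.31% from 1 to 5%, 7.73 ± 2.02% from 5 to 10% and 10.4 ± 1.12% from 10 to 25%. Beyond that it stayed between 10.7 and 11.0%. Injured 2 was the exception at the top, with 10.5% of its best 1% on ALT contigs, and injured 3 and control 1 were lowest at 1.29 and 1.27%. Without injured 1 and injured 2 the best 1% held 3.24 ± 1.64% (SD, n = 7). The ratio of the share of the best 1000 to the share of all peaks was 0.395 for ALT contigs. It was higher on 24 of the 25 chromosomes, up to 2.01 on chromosome 4, and lower on chromosome 1 (0.365). Without injured 1 and injured 2 the ALT ratio was 0.350, again above chromosome 1 (0.323) and below the other 24.

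**Figure D3:**
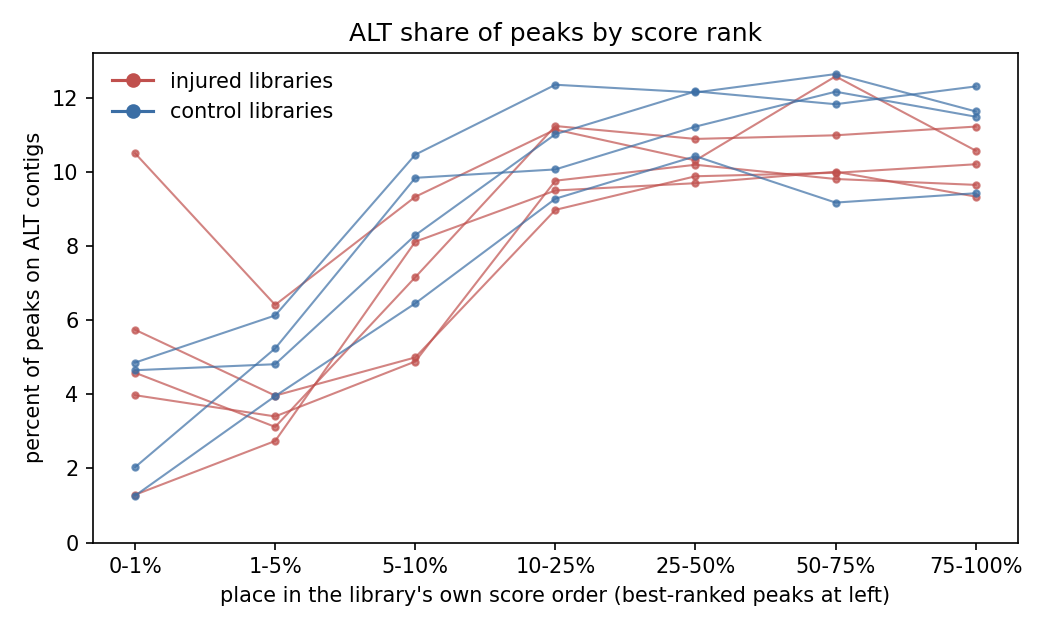
Percent of peaks on ALT contigs by place in a library's own score order, with 1 line per library, red for injured and blue for control. The share is under 7% in the best 5% of every list apart from the first point of injured 2, and from 25% onward lies between 9 and 13%.

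Over whole lists ALT peaks ranked only slightly behind those on the chromosomes. The median rank percentile, from 0 for the best to 100 for the last peak, was 52.5 ± 1.63 for ALT and 50.6 ± 0.915 for chromosome peaks (SD, n = 9). The difference of 1.89 was above 0 in 5 libraries and exactly 0 in the other 4, where both medians fell on the same tied score (exact sign-flip permutation p = 0.0625). Libraries at 0 add nothing to this test, so 0.0625 was the smallest p that the 5 libraries off 0 allow. In equal-length lists it was 6.22 and above 0 in 9 of 9 libraries (exact sign-flip permutation p = 0.00391). With chromosome 4 left out of the reference, it was 0.798 in full lists, above 0 in 3 libraries and 0 in 6 (exact sign-flip permutation p = 0.25). In equal-length lists it was then 2.70, above 0 in 4 libraries and 0 in 5 (exact sign-flip permutation p = 0.125). Both p-values were likewise the smallest that the libraries off 0 allow. By the mean percentile the difference without chromosome 4 was 1.33, above 0 in 9 of 9 libraries (exact sign-flip permutation p = 0.00391). Peaks on unplaced scaffolds, the other sequences outside the chromosomes, ranked better than ALT peaks in 9 of 9 libraries, by 19.7 percentile points (exact sign-flip permutation p = 0.00391).

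ALT peaks were also a little narrower. Their median width was 183, 277, 272, 234 and 225 bp in injured 1 to 5 and 206, 244, 198 and 234 bp in control 1 to 4. Chromosome peaks of the same library were wider by 2 to 9 bp in 9 of 9 libraries, with means of 237 ± 30.8 against 230 ± 31.7 bp (SD, n = 9; exact sign-flip permutation p = 0.00391). This difference within libraries was smaller than the spread of the widths between libraries.

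ALT regions were seldom shared by all libraries. A single library detected 9022 of the 14065 (64.1%), and 120 (0.853%, Wilson 95% interval 0.714 to 1.02) had a peak in each of the 9. On chromosomes 1 to 25 the latter share was 1.48% (1.41 to 1.55), and on unplaced scaffolds 4.87%. Each of the 25 chromosomes was above the ALT contigs, from 0.866% on chromosome 20 to 3.31% on chromosome 4. For each of the 36 pairs of libraries, the regions detected in both as a share of those detected in either was lower on ALT contigs than on the chromosomes, 12.6 ± 1.70 against 16.7 ± 1.43% on average (SD over pairs, which share libraries, so that no test was made).

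**Figure D4:**
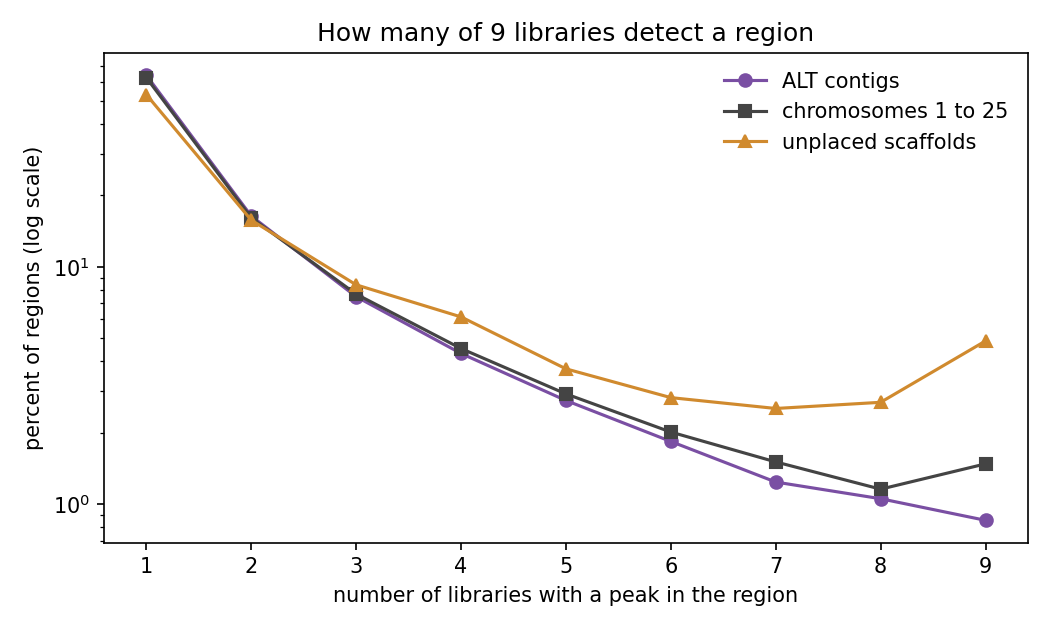
Percent of regions (log scale) by the number of libraries with a peak in the region, for ALT contigs, chromosomes and unplaced scaffolds. The ALT curve lies close to the chromosome curve up to 5 libraries and keeps falling to 0.853% at 9, where the chromosome curve turns up to 1.48% and that of the scaffolds to 4.87%.

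The 120 ALT regions with a peak in all libraries had wider and better-ranked peaks than ALT peaks as a whole, and narrower and worse-ranked peaks than the chromosome regions common to all libraries. Choosing regions with a peak in every list itself favours strong and wide peaks, so the first of these contrasts is no separate result. The median peak width of the 120 ALT regions was 402 ± 70.8 bp, against 445 ± 43.6 bp in the 1617 such chromosome regions. Their median rank percentile was 16.1 ± 4.51 against 7.86 ± 2.20 (SD over 9 libraries). They lay on 106 contigs, 11 of which held more than 1. ALT_CTG1_1_25 held 4. After the region on ALT_CTG20_1_8, the best by median rank percentile was ALT_CTG17_1_23, 313160 to 314454, at 1.03, with ranks of 107 to 1041 in 8 libraries and 5575 in injured 3. ALT_CTG22_1_28, 217579 to 218745, followed at 2.0 and was even across libraries, ranking between 239 and 988.

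The next 7 regions in that order had median percentiles of 2.66 to 3.76. ALT_CTG6_1_4, 87737 to 89185, and ALT_CTG24_1_3, 77533 to 78981, were both 1449 bp wide but differed in evenness, the former ranking 340 to 1270 and the latter 101 to 2428. The others were ALT_CTG11_1_16, ALT_CTG8_1_18, ALT_CTG10_1_35, ALT_CTG23_1_27 and ALT_CTG4_2_3. For each of the 10 regions the rank percentiles of injured and control libraries overlapped. The region on ALT_CTG4_2_3 ran from percentile 0.859 in control 2 to 23.5 in injured 3.

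Detection was compared between injured and control libraries for the 4775 ALT regions with a peak in 2 to 7 libraries. After adjustment over all 44043 such regions of the series, 0 ALT regions were called (Fisher's exact test, lowest adjusted p = 0.753). The same held for 0% of those on chromosomes 1 to 25, the background in what follows. The smallest p that Fisher's exact test allows for 5 against 4 libraries is 0.00794, reached only by complete separation of the groups. A region at that p could pass the adjustment only if very many regions reached it together. The 0 calls therefore cannot show that detection was alike in both groups. At an unadjusted p below 0.05, 233 were detected more often in control libraries (4.88%, background 4.2%) and 7 more often in injured libraries (0.147%, background 0.213%). The 2 directions did not have equal room, in full or in equal-length lists. Regions detected in 3 libraries (1052 in full lists) could reach this threshold only toward control. Those detected in 6 libraries (258) could reach it only toward injured libraries. A region leaned to the group in which the larger share of libraries detected it. Equal numbers of libraries in both groups thus counted as a lean to control, the smaller group. An even split is therefore not what lists without a group difference would give. More ALT regions leaned to control than to injured libraries, 3712 (77.7%), close to the background of 76%. In equal-length lists 63.1% of the 2478 ALT regions tested leaned to control libraries (background 61.3%). The unadjusted counts of ALT regions were then 64 higher in control (2.58%, background 2.43%) and 20 higher in injured libraries (0.807%, background 0.65%).

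Detection in every library of one group and none of the other was found for 19 ALT regions, all in the control direction (0.398%, background 0.337%). The injured direction held 0 ALT regions (background 0.0132%). The control direction takes a peak in exactly 4 libraries (606 ALT regions), and the injured direction in exactly 5 (384). Each control list was also longer than every injured list. What these limits add to the difference between directions was not tested. The first 5 in the control direction, each with a peak in 4 of 4 control and 0 of 5 injured libraries, were ALT_CTG17_1_23 at 276388 to 276805, ALT_CTG23_1_12 at 110664 to 110874, ALT_CTG20_1_8 at 103829 to 104294, ALT_CTG10_1_23 at 120017 to 120491 and ALT_CTG23_1_32 at 1531 to 2047 (Fisher's exact p = 0.00794, adjusted p = 0.753). The median rank percentile of the 19 regions in the control libraries ran from 16.6 to 84.4, with a middle value of 30.8. The region on ALT_CTG17_1_23 ranked 2091, 9068, 1644 and 17075 in control 1 to 4, and that on ALT_CTG20_1_8 2584, 6744, 12882 and 7148. The latter lies on the same contig as the best-ranked region common to all libraries.

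In the injured direction the first 5 regions had a Fisher's exact p of 0.0476 (adjusted p = 0.753). ALT_CTG16_1_3, 127658 to 128287, had a peak in 5 of 5 injured libraries, at ranks 5488, 1890, 3073, 6934 and 5167, and in control 1 at rank 6385. ALT_CTG3_1_17, 30804 to 31343, had 5 of 5 and 1 of 4, at ranks from 4965 to 18961. ALT_CTG6_1_47 (66862 to 67346), ALT_CTG22_1_28 (110995 to 111414) and ALT_CTG14_1_31 (362069 to 362691) had a peak in 4 of 5 injured and 0 of 4 control libraries. In equal-length lists ALT_CTG3_1_17 had 3 of 5 and 1 of 4 (Fisher's exact p = 0.524). There ALT_CTG14_1_31 had 3 of 5 and 0 of 4 (Fisher's exact p = 0.167), and the other regions of the 5 kept their counts.

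Shortening the lists changed which regions were exclusive. In equal-length lists 7 of 2478 ALT regions were exclusive to control libraries (0.282%, background 0.202%) and 1 to injured libraries (0.0404%, background 0.0303%). The latter, ALT_CTG5_1_47 at 86139 to 86815, ranked 11450, 3341, 5378, 3882 and 8091 in injured 1 to 5. In the full lists it had a peak in 4 of 4 control libraries as well, so its exclusiveness came from the shortening. Of the 7 control regions, 3 are named above (on ALT_CTG20_1_8, ALT_CTG10_1_23 and ALT_CTG23_1_32). The others lay on ALT_CTG22_1_28 (144030 to 144461), ALT_CTG2_2_1 (255875 to 256266), ALT_CTG3_1_25 (39701 to 40081) and ALT_CTG5_2_14 (37918 to 38502), the last with a peak in 1 injured library in the full lists.

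ALT peaks were spread over many contigs rather than gathered on a few. The median contig had 22 peaks over the 9 lists, 395 contigs had a peak in all 9 libraries and 28 in a single library, and the 10 contigs with most peaks held 5.68% of ALT peaks. ALT_CTG10_1_31 came first with 210 peaks in 138 regions, and 0 of the 138 had a peak in every library. ALT_CTG17_1_23 and ALT_CTG18_1_19 followed with 154 each, then ALT_CTG10_2_8, ALT_CTG5_2_9, ALT_CTG6_2_1, ALT_CTG8_1_21, ALT_CTG20_2_2, ALT_CTG5_1_41 and ALT_CTG7_1_21 with 145 to 137. ALT_CTG8_1_21 had its 143 peaks in only 42 regions, 3 of them common to all libraries.

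Peak density could be bounded although contig lengths are not in the files. The rightmost peak end on a contig is the least length the contig can have, and these ends summed to 251.6 Mb, with a median of 266 kb. That allows at most 11.7 ± 4.63 ALT peaks per Mb and library (SD, n = 9), against at most 18.1 ± 5.67 on the chromosomes, bounded in the same way. The ratio of these upper bounds lay between 0.558 in control 1 and 0.738 in control 4. It does not bound the true ratio, because how far each summed length falls short is unknown. Contigs with no peak were not counted.

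Peaks were more frequent at the very start of the contigs. The first kilobase held 152 peaks over all libraries and the second 115, against 64.7 ± 12.7 (SD over 30 bins, range 34 to 92) per kilobase from 10 to 40 kb. The first kilobase was above the mean of those bins in 9 of 9 libraries, and its peaks came from 56 contigs. A region with peaks in several libraries counts several times here. Counted as regions, the first kilobase held 62 and the second 41, against 20 to 47 in the bins from 10 to 40 kb. Only the first kilobase thus stood above those bins by regions. Of the 103 regions in the first 2 kb, 4 were detected in all 9 libraries (3.88%), against 0.820% of those past 10 kb. This was noticed in the lists rather than looked for and was not tested. The region on ALT_CTG23_1_32 named above, exclusive to control libraries, starts in the second kilobase.

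**Figure D5:**
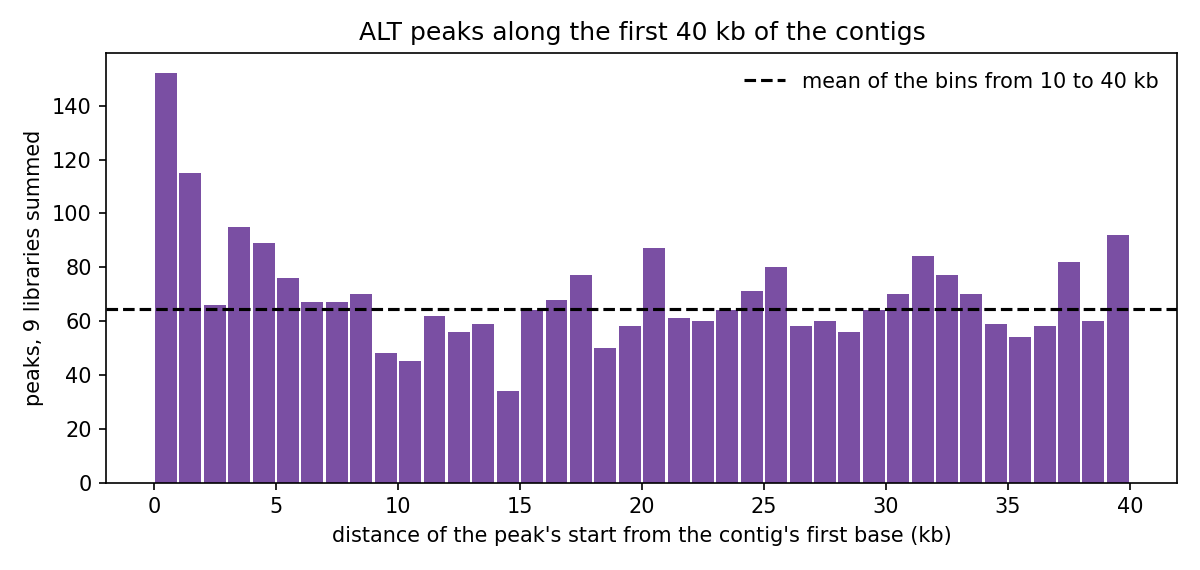
ALT peaks of all 9 libraries per kilobase, by distance of the peak's start from the first base of its contig; the dashed line is the mean of the bins from 10 to 40 kb. The first bins, at 152 and 115 peaks, stand above all 30 bins past 10 kb.

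Grouped by the first number after ALT_CTG, which runs from 1 to 25, contigs of number 5 held most ALT peaks (2508 on 78 contigs), followed by 7, 6, 1 and 10. Numbers 19 (121 peaks on 10 contigs), 21, 2, 25 and 4 held fewest. Number 6 had 11 regions detected in all libraries and number 15 had 0 of 312. The share of a library's ALT peaks differed between injured and control libraries at an adjusted p below 0.05 for 0 of 25 numbers. At an unadjusted p below 0.05 it differed for 2 of 25 (8%). For number 19 the share was 0.372 ± 0.0571% after injury (SD, n = 5) and 0.508 ± 0.0725% in controls (SD, n = 4), without overlap (exact permutation p = 0.00794, adjusted p = 0.198), and number 22 had 4.25 ± 0.267% against 3.77 ± 0.287% (exact permutation p = 0.0397, adjusted p = 0.454). In equal-length lists 3 of 25 (12%) passed unadjusted and neither 19 nor 22 was among them. They were number 2, with a lower share after injury, and numbers 16 and 17, with a higher share. Number 16 had 3.20 ± 0.263% (SD, n = 5) against 2.48 ± 0.457% (SD, n = 4; exact permutation p = 0.00794, adjusted p = 0.198).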

How the data were processed

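Of each library 100 bp paired-end reads were sequenced, and the labels give a range of retained reads over the samples but no read total for a library, so depth per library is unknown. Per the submitters' processing notes the build was GRCz11 and the tools were Bowtie2, MACS2, Trim Galore, Picard, SAMtools, bedtools, deepTools, ChIPseeker, DiffBind and DESeq2. Not given in the sources used here are their settings, how reads with several placements were treated, and the cut-off for peaks. The deposited lists hold chromosome, start, end, name and a whole-number score of at least 13, whose scale is not stated, and it was used only to rank peaks within a list.

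Peaks were merged across lists and tests computed with Python 3.11.15, pandas 2.3.3, numpy 2.4.6 and scipy 1.17.1, after tests on simulated data; plots used matplotlib 3.10.9. Coordinates are 1-based. For rank percentiles, tied scores shared their mean rank. For printed ranks, best-ranked sets, shares along the score order and shortened lists, ties were ordered by width, then sequence name and position. Wider peaks, and after them chromosome peaks before ALT peaks, therefore came first among ties. Group means were compared over all 126 assignments of 9 libraries, and within-library differences over 512 sign patterns. Regions detected in 2 to 7 libraries were tested with Fisher's exact test, Benjamini-Hochberg adjusted over the whole series. Named were the 10 regions common to all 9 libraries with the best median rank percentile, the first 5 in each direction by Fisher p, size of the difference and rank, exclusive regions where a direction had 5 or fewer, and the 10 contigs and 5 numbers with most peaks (and 5 numbers with fewest). The members and lists were chosen with earlier results of these data known. The regions among the best 100 and 1000 ranks, the comparison of the best 1000, the contig starts and the control regions exclusive at equal length were added after their values were seen. Genes, sequences and base composition of the regions were not analysed here.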

Additional observations from a re-analysis of the deposited data

Results flagged for a closer look

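In injured 2, 7.1% of the 1000 best-ranked peaks lay on ALT contigs, and the nearest of the other injured libraries, injured 1, had 4.2%. That gap was 0.784 of the whole range of the 5 injured libraries, past the limit for a single outlying value among 5 samples. Of the 71 ALT peaks behind the 7.1%, 25 lay in regions detected in injured 1 and injured 2 alone. The other ALT peaks made up 4.6% of the same 1000 peaks, from which no peak was taken out. Counted in the same way, injured 1 was left with 1.9%, while control 4, which had no such peaks, stood at 4.6%. It was 1 of 42 groups of values examined, and chance alone flags about 1 group in 20. The cause was not tested.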

How the results depend on the processing

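Alternatives added after seeing the data are the mean percentile, chromosome 4 left out of equal-length lists or of the mean, leaving out injured 1 and injured 2 together, and all settings for the best-ranked peaks and for regions common to all libraries. Depth per library is unknown, lists of unequal length limit every count, and contig lengths and reads with several placements were not analysed here. The cause of each change below was not tested, except that fewer samples or shorter lists leave fewer regions to test. Leaving out libraries also makes exclusive detection easier to reach.

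The difference in ALT peak number was -102 in equal-length lists (exact permutation p = 0.294) and -1991 without injured 1 and 2 (exact permutation p = 0.0571). That in covered length was -63.7 kb (0.357) and -516 kb (0.0857). Leaving out 1 library at a time, peak number ranged from -1946 to -1132, covered length from -531 to -259 kb, ALT share from -1.53 to -0.653 points, and ALT regions per 100 regions from -1.51 to -0.641. Without control 4, peak number no longer had an unadjusted exact permutation p below 0.05. Covered length did not have one without injured 1, 3, 4 or 5 or control 2, 3 or 4 (smallest difference without control 4). With all 9 libraries neither had passed once adjusted. Share and regions per 100 passed unadjusted without control 1.

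Same-numbered libraries did not deviate together (r from -0.0508 to 0.0283 over 4 pairs, and from -0.0204 to 0.0387 over differently numbered pairs). These values gave no sign that the numbers pair the samples, but cannot exclude it, and the labels do not say what the numbers mean. With the replicate block, peak number differed by -1477 and covered length by -377 kb (exact permutation p = 0.125, the smallest 4 pairs allow).

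The rank percentile difference was 6.22 in equal-length lists, 5.65 in the better-ranked 50% of each list and 2.25 by the mean (exact permutation p = 0.00391, 0.0156 and 0.00391). Without chromosome 4 it was 0.798, 2.70 in equal-length lists and 1.33 by the mean (exact permutation p = 0.25, 0.125 and 0.00391). The exact permutation p-values of 0.25 and 0.125 were the smallest possible, since libraries at 0 add nothing to the test. The 240 ALT regions past the unadjusted threshold became 84, 131 in the better-ranked 50%, 69 without injured 1 and 2, and 22 to 78 with 1 library left out. The 19 exclusive regions became 8 in equal-length lists, 69 without injured 1 and 2, and 22 to 78 with 1 library left out. With libraries left out, only complete separation of the groups gave an unadjusted Fisher's exact p below 0.05, so both counts are the same regions. A region that is exclusive with every library stays exclusive with fewer, so leaving libraries out could not lower the exclusive count. The share common to all libraries differed from the chromosomes by -1.15 points in equal-length lists and -1.20 in the better-ranked 50%, against -0.623. The share of number 16 differed by 0.0523 points, and with 1 library left out by -0.0468 (without injured 3) to 0.140, with -0.0312 without control 2. Peak width and the best-ranked share kept direction and call in every alternative run, but the width difference of -6.89 bp became -12.5 in equal-length lists and -14.1 in the better-ranked 50%, and the -6.21 points of the best 1000 became -2.47 in the best 5000.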
